A study of Mus musculus with 11 samples.

Results

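Ltc4s and 9 further genes of tuft cells and of leukotriene synthesis were followed in RNA sequencing of mouse small intestine. The members were taken by symbol from the table of all libraries: Ltc4s, Alox5, Alox5ap, Dclk1, Trpm5, Pou2f3, Il25, Gfi1b, Sh2d6 and Avil, 10 of the 24250 genes listed, and all 10 were present. The FSP group was given 5 Substances Powder with Poria (the labels spell the number as a word), a herbal preparation of Chinese medicine, and had 4 libraries. The HFD group, read here as high-fat diet, had 4 libraries, and ND, taken to stand for normal diet, had 3. The labels do not give the diet of the FSP mice, nor the strain, sex, age, dose, length of treatment, region of the small intestine or batch. Samples are listed separately, but no label says that each is from its own animal, so the spread behind the p-values may in part be technical. The question was whether Ltc4s followed the tuft cell markers across the groups.

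Tuft cells are rare chemosensory cells of the intestinal epithelium. They read luminal compounds through a taste-like cascade that ends in the cation channel Trpm5, depend on the transcription factor Pou2f3, and release the cytokine Il25, which acts on group 2 innate lymphoid cells. They also make lipid mediators. 5-lipoxygenase (Alox5), helped by its activating protein Alox5ap, converts arachidonic acid to leukotriene A4, and leukotriene C4 synthase (Ltc4s) joins this to glutathione to give leukotriene C4, the parent of the cysteinyl leukotrienes. Mast cells, eosinophils and macrophages can carry the same pathway.

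The promoters below show Ltc4s beside the tuft markers that it was set against. They are the 250 bases before the start of the gene on its own strand, from RefSeq on GRCm38.p6, and this table matched 7 of the 10 members (not Pou2f3, Il25 and Alox5ap). Capitals mark TGCAAA or its reverse complement TTTGCA, a core of the octamer ATGCAAAT bound by POU factors, and in Avil also the GATA motif AGATAA. Ltc4s is read from chr11:50238533-50238782 on the minus strand, Avil from chr10:127000459-127000708 on the plus strand, Dclk1 from its inner start at chr3:55461478-55461727 on the plus strand, where capitals also mark the CDX motif TTTATG, and Trpm5 from chr7:143094643-143094892 on the minus strand.
Ltc4s: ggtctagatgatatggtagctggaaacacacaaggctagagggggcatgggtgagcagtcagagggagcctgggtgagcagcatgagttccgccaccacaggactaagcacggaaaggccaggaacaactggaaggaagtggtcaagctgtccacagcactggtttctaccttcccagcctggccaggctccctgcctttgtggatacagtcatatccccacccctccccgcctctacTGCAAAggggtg
Avil: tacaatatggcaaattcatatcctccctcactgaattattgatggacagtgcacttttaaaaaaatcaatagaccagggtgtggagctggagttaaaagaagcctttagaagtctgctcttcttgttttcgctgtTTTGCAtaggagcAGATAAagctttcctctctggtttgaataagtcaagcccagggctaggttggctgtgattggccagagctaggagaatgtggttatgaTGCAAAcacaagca
Dclk1: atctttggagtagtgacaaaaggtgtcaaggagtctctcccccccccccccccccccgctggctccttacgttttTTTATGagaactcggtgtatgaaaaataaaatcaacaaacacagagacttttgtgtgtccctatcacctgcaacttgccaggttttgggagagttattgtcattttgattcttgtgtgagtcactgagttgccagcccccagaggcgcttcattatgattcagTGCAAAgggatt
Trpm5: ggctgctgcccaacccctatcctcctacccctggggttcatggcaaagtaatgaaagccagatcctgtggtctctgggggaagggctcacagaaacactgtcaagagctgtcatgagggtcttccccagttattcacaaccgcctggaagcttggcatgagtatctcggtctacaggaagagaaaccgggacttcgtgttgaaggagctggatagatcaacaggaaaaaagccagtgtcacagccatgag
The octamer core began 12 bases before the start in Ltc4s, 14 bases before it in Avil with a reverse copy 115 bases before it, and 12 bases before the inner start of Dclk1. These letters were not in the windows of Trpm5, Sh2d6, Alox5, Gfi1b or the outer start of Dclk1. The RefSeq starts used for Ltc4s and Sh2d6 lie inside their GENCODE genes. In GENCODE, Ltc4s runs to 50238616, so the core near its RefSeq start lies inside that gene. On either strand 13.5% of 32851 promoters of this table hold the core, 9.99% hold AGATAA and 10.8% hold TTTATG, and the motifs were chosen after the sequences had been seen. The complete octamer, which 1.6% of the promoters hold, was in none of the 8 windows of the matched members, of which Dclk1 has 2.

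Libraries held 3.18e+07 to 3.84e+07 fragments, recovered from the values, so that a gene of 1 kb at 1 FPKM (a fragment count divided by gene length and by library total) rested on about 31.8 fragments in the shallowest library. The 10 epithelial marker genes summed to 7138 to 8360 FPKM in FSP, 4901 to 7021 FPKM in HFD and 6179 to 6530 FPKM in ND. At a limma adjusted p under 0.05, 3 of them were lower in HFD than in ND, where 15.1% of all tested genes fell. In FSP against HFD 2 of them were higher, where 2.83% of all tested genes rose. Goblet cell genes summed to 1569 to 12700.3 FPKM in FSP, 4197 to 4720 FPKM in HFD and 1274 to 2297 FPKM in ND, and B and plasma cell genes to 87.4 to 807 FPKM in FSP, 126 to 295 FPKM in HFD and 38.6 to 65.0 FPKM in ND. The part of these cells in the values that follow was not tested. The 13 mitochondrially encoded protein genes took 40.4% of the FPKM sum of HFD 1 and 12.9% to 26.3% of the other libraries. A position score was the difference in mean log2 level between 13 genes of the distal and 11 of the proximal small intestine. It was -0.11 to 2.37 in FSP, -1.83 to -0.54 in HFD and 1.64 to 4.12 in ND, so that HFD libraries read as more proximal than all others. The distal genes include Fabp6, Slc10a2 and Fgf15, and the proximal ones Fabp1, Rbp2 and Cyp8b1. Whether diet moved these genes apart from gut position was not tested. In tissue libraries, fewer cells of a type and less RNA per cell cannot be told apart.

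Of the 10 members, 5 had a mean of at least 1 FPKM over the 11 libraries and entered the main test (Ltc4s, Alox5ap, Trpm5, Sh2d6 and Avil), and 5 lay below it (Alox5, Dclk1, Pou2f3, Gfi1b and Il25). In HFD against ND, 1 of the 5 tested members rose (Ltc4s) and 1 fell (Trpm5) at an adjusted p under 0.05 (limma over 10296 genes, Benjamini-Hochberg), where 5.36% of all tested genes rose and 15.1% fell. In FSP against HFD, 1 fell (Ltc4s) and none rose, where 0.913% of all genes fell and 2.83% rose. In FSP against ND, 1 rose (Ltc4s) and none fell, where 0.699% of all genes rose and 0.33% fell. The 3 comparisons share libraries, so their counts are not independent of each other. All tested genes had a median log2 change of -0.21 (HFD against ND), 0.12 (FSP against HFD) and -0.07 (FSP against ND), and median-ratio scaling of the libraries brought each to within 0.0103 of 0. Among all genes 552 were higher and 1557 lower in HFD than in ND, 291 rose and 94 fell in FSP against HFD, and 72 rose and 34 fell in FSP against ND. After median-ratio scaling, 1093 rose and 922 fell in HFD against ND, and 180 rose and 167 fell in FSP against HFD. After quantile normalization these were 1125 and 1185 in HFD against ND, and 249 and 194 in FSP against HFD. At equal totals without the mitochondrially encoded genes, 159 rose and 122 fell in FSP against HFD, and 72 rose and 71 fell in FSP against ND. The direction of Ltc4s in all 3 comparisons, and that of Trpm5 in HFD against ND, stayed the same under every scaling.

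Ltc4s (ENSMUSG00000020377, chr11:50236461-50238616, minus strand, GENCODE on GRCm38) differed in all 3 comparisons: it was highest in HFD, lower in FSP and lowest in ND. It had 21.9, 19.9, 23.1 and 11.8 FPKM in FSP, 50.8, 28.4, 39.6 and 42.5 FPKM in HFD, and 4.00, 3.77 and 3.91 FPKM in ND. No library of one group reached the range of another, and the ND libraries lay closest together. It averaged 19.2 ± 5.07 FPKM in FSP, 40.3 ± 9.25 FPKM in HFD (SD, n = 4 each) and 3.89 ± 0.117 FPKM in ND (SD, n = 3). HFD exceeded ND 10.4-fold, a log2 change of 3.05 ± 0.23 (SE; limma on log2(FPKM + 1), adjusted p = 7.99e-05), and by p this was number 2 of the 10296 genes. FSP was 0.476 times HFD, a log2 change of -1.05 ± 0.21 (SE; limma, adjusted p = 0.0247, number 151). FSP still exceeded ND 4.92-fold, a log2 change of 2.00 ± 0.23 (SE; limma, adjusted p = 0.00242, number 7). The exact permutation test gave p = 0.0286 in each of the 3 comparisons, the smallest that 4 against 4 or 4 against 3 libraries allow.

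The call in FSP against HFD was the weakest of the 3, and it was past the threshold in 17 of 24 settings. It was lost without HFD 1 (limma adjusted p = 0.0624), without HFD 3 (0.0743), without HFD 4 (0.0576) and without FSP 4 (0.0593), and the log2 change stayed between -1.20 and -0.84 over all single libraries left out. With the position score as a covariate, the log2 change was -0.55 in FSP against HFD (limma adjusted p = 0.681) and 2.27 in HFD against ND (limma adjusted p = 0.375), where no gene of all those tested passed in either comparison. FSP against ND kept its call in 24 of 24 settings, with log2 changes of 1.72 to 2.23 and a highest limma adjusted p of 0.0326.

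**Figure D1:**
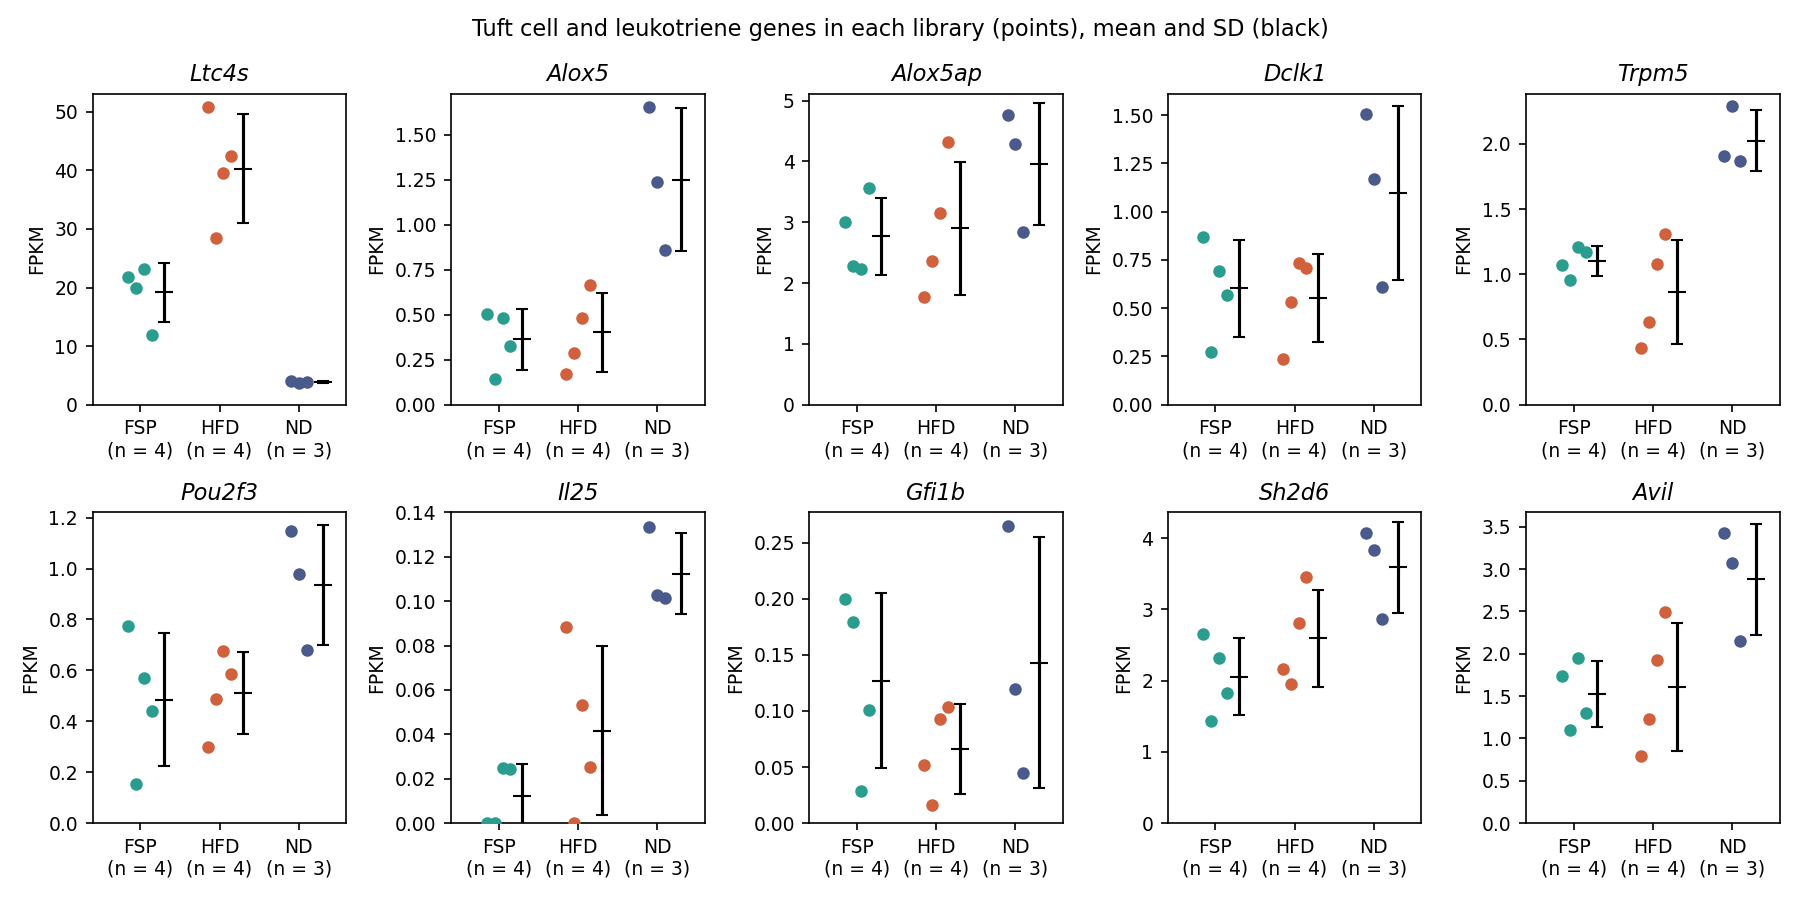
FPKM (y axis, from 0, its own scale in each panel) of the 10 members in each library of FSP (n = 4), HFD (n = 4) and ND (n = 3). Points are libraries, and the black mark and bar are the mean and SD. Ltc4s is lowest in ND and separates all 3 groups, whereas Alox5 and Trpm5 are highest in ND.

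The RNA of the 2 proteins that act before Ltc4s averaged lower in FSP and in HFD than in ND. Alox5 (chr6:116410077-116461178, minus strand), which oxygenates arachidonic acid, had 0.503, 0.140, 0.481 and 0.328 FPKM in FSP, 0.172, 0.286, 0.481 and 0.665 FPKM in HFD, and 1.65, 1.24 and 0.857 FPKM in ND. Every FSP and HFD library lay below every ND library, while FSP and HFD overlapped. Alox5 averaged 0.363 ± 0.168 FPKM in FSP, 0.401 ± 0.217 FPKM in HFD (SD, n = 4 each) and 1.25 ± 0.398 FPKM in ND (SD, n = 3). It lay under the filter of the main test. In a fit of 14803 genes with a mean of at least 0.1 FPKM on log2(FPKM + 0.1), Alox5 fell in HFD against ND by 1.49 (SE 0.42, limma adjusted p = 0.0370), where 9.63% of genes fell and 4.26% rose. In that fit the log2 change of Alox5 in FSP against ND was -1.59 ± 0.42 (SE), which did not pass (limma adjusted p = 0.133), and in FSP against HFD it was -0.09 ± 0.39 (SE; limma adjusted p = 0.946). Ltc4s kept its 3 calls in that fit, where 0.561% of all genes fell in FSP against HFD and 0.527% rose in FSP against ND.

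Alox5ap (chr5:149264767-149288153, plus strand), the membrane protein that presents arachidonic acid to Alox5, had 3.00, 2.28, 2.22 and 3.56 FPKM in FSP, 1.77, 2.37, 3.14 and 4.31 FPKM in HFD, and 4.76, 4.28 and 2.84 FPKM in ND. All 3 groups overlapped. Its log2 change was -0.02 ± 0.21 in FSP against HFD (limma adjusted p = 0.974), -0.39 ± 0.23 in FSP against ND (0.458) and -0.37 ± 0.23 in HFD against ND (0.251), and the last turned to 0.16 with the position score as a covariate. In ND, Ltc4s and Alox5ap stood at like levels, at 0.841 to 1.38 FPKM of Ltc4s per FPKM of Alox5ap. This ratio was 3.33 to 10.4 in FSP and 9.85 to 28.8 in HFD.

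Trpm5 (chr7:143069153-143094642, minus strand), the channel that depolarises tuft cells, was the one tuft cell marker among the members to pass the main test. It had 1.07, 0.954, 1.21 and 1.17 FPKM in FSP, 0.433, 0.632, 1.08 and 1.31 FPKM in HFD, and 1.91, 2.29 and 1.87 FPKM in ND. All FSP and HFD libraries lay below all ND libraries, and the FSP range lay inside the HFD range. Its averages were 1.10 ± 0.115 FPKM in FSP, 0.863 ± 0.401 FPKM in HFD (SD, n = 4 each) and 2.03 ± 0.233 FPKM in ND (SD, n = 3). Trpm5 fell in HFD against ND to 0.426 times the ND mean, a log2 change of -0.72 ± 0.17 (SE; limma adjusted p = 0.0129), with an exact permutation p of 0.0571. Without ND 2 this call was lost (limma adjusted p = 0.0690), as it was with the position score as a covariate (0.554). The log2 change was -0.52 ± 0.17 (SE) in FSP against ND, which did not pass (limma adjusted p = 0.173), and 0.20 ± 0.16 (SE) in FSP against HFD (limma adjusted p = 0.534).

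Avil (chr10:127000709-127020994, plus strand), an actin-bundling protein of the tuft cell's apical bundle that neurons also make, had 1.74, 1.10, 1.96 and 1.30 FPKM in FSP, 0.788, 1.23, 1.93 and 2.50 FPKM in HFD, and 3.42, 3.07 and 2.15 FPKM in ND. FSP lay wholly below ND, and HFD 4 reached into the ND range. Sh2d6, an adaptor protein with an SH2 domain (chr6:72513641-72521707, minus strand), had 2.65, 1.43, 2.32 and 1.83 FPKM in FSP, 2.16, 1.95, 2.81 and 3.46 FPKM in HFD, and 4.07, 3.83 and 2.87 FPKM in ND. It too had FSP wholly below ND, and HFD overlapped both. Neither gene passed in any comparison of the main test: the log2 change of Avil was -0.02 ± 0.21 in FSP against HFD (limma adjusted p = 0.981), -0.62 ± 0.23 in FSP against ND (0.240) and -0.60 ± 0.23 in HFD against ND (0.0814). That of Sh2d6 was -0.23 ± 0.17 in FSP against HFD (limma adjusted p = 0.513), -0.59 ± 0.19 in FSP against ND (0.166) and -0.36 ± 0.19 in HFD against ND (0.177).

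Among the 5 members in the main test, the FSP libraries lay wholly below ND for 3 (Trpm5, Sh2d6 and Avil) and wholly above for 1 (Ltc4s), where 10.9% and 5.57% of all tested genes were placed so. HFD lay wholly below ND for 1 (Trpm5) and above for 1 (Ltc4s), where 33.6% and 9.28% of genes did. FSP lay wholly below HFD for 1 (Ltc4s) and above for none, where 2.3% and 8.52% of genes did. Over the 9 members with a mean of at least 0.1 FPKM, which adds Alox5, Dclk1, Pou2f3 and Gfi1b, FSP lay wholly below ND for 4 and above for 1 (9.15% and 4.77% of the 14803 genes at this filter), HFD below ND for 3 and above for 1 (27.6% and 8.7%), and FSP below HFD for 1 and above for none (2.16% and 6.55%).

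Dclk1 (chr3:55242364-55539068, plus strand), a kinase used to stain tuft cells that neurons also make, had 0.870, 0.275, 0.693 and 0.568 FPKM in FSP, 0.239, 0.530, 0.732 and 0.707 FPKM in HFD, and 1.50, 1.17 and 0.612 FPKM in ND. ND 3 lay inside the ranges of the other groups. Pou2f3 (chr9:43123939-43210369, minus strand), on which tuft cells depend, had 0.776, 0.153, 0.571 and 0.441 FPKM in FSP, 0.298, 0.489, 0.674 and 0.585 FPKM in HFD, and 1.15, 0.978 and 0.681 FPKM in ND. HFD lay below ND by a narrow gap, from 0.674 FPKM in HFD 3 to 0.681 FPKM in ND 3 (exact permutation p = 0.0571), and FSP overlapped both. In the fit at 0.1 FPKM the log2 change of Dclk1 was 0.11 ± 0.39 in FSP against HFD, -0.77 ± 0.42 in FSP against ND and -0.88 ± 0.42 in HFD against ND, with limma adjusted p of 0.938, 0.500 and 0.179. The log2 change of Pou2f3 was -0.16 ± 0.38 in FSP against HFD, -0.93 ± 0.41 in FSP against ND and -0.78 ± 0.41 in HFD against ND, with limma adjusted p of 0.900, 0.380 and 0.213.

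Gfi1b, a transcriptional repressor of the tuft and blood lineages (chr2:28609450-28621982, minus strand), and Il25 (chr14:54932695-54935837, plus strand) rested on few fragments. Gfi1b had 13, 12, 2 and 7 fragments in FSP, 3, 1, 6 and 7 in HFD, and 17, 8 and 3 in ND, which came out whole to within 0.121 of a fragment. The groups overlapped, and no comparison passed in the fit at 0.1 FPKM (limma adjusted p of 0.673 in FSP against HFD, 0.958 in FSP against ND and 0.420 in HFD against ND). Il25 had 0, 0, 1 and 1 fragments in FSP, 3, 0, 2 and 1 in HFD, and 5, 4 and 4 in ND. A count of 0 allows up to 3 fragments, or 0.0784 FPKM in FSP 1, 0.0763 FPKM in FSP 2 and 0.0832 FPKM in HFD 2, as counting error alone. The 2 fragments of the 4 FSP libraries and the 6 of the 4 HFD libraries stood against 13 in the 3 ND libraries. The exact permutation p for Il25 was 0.0286 in FSP against ND and 0.0571 in HFD against ND, on these few fragments.

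**Figure D2:**
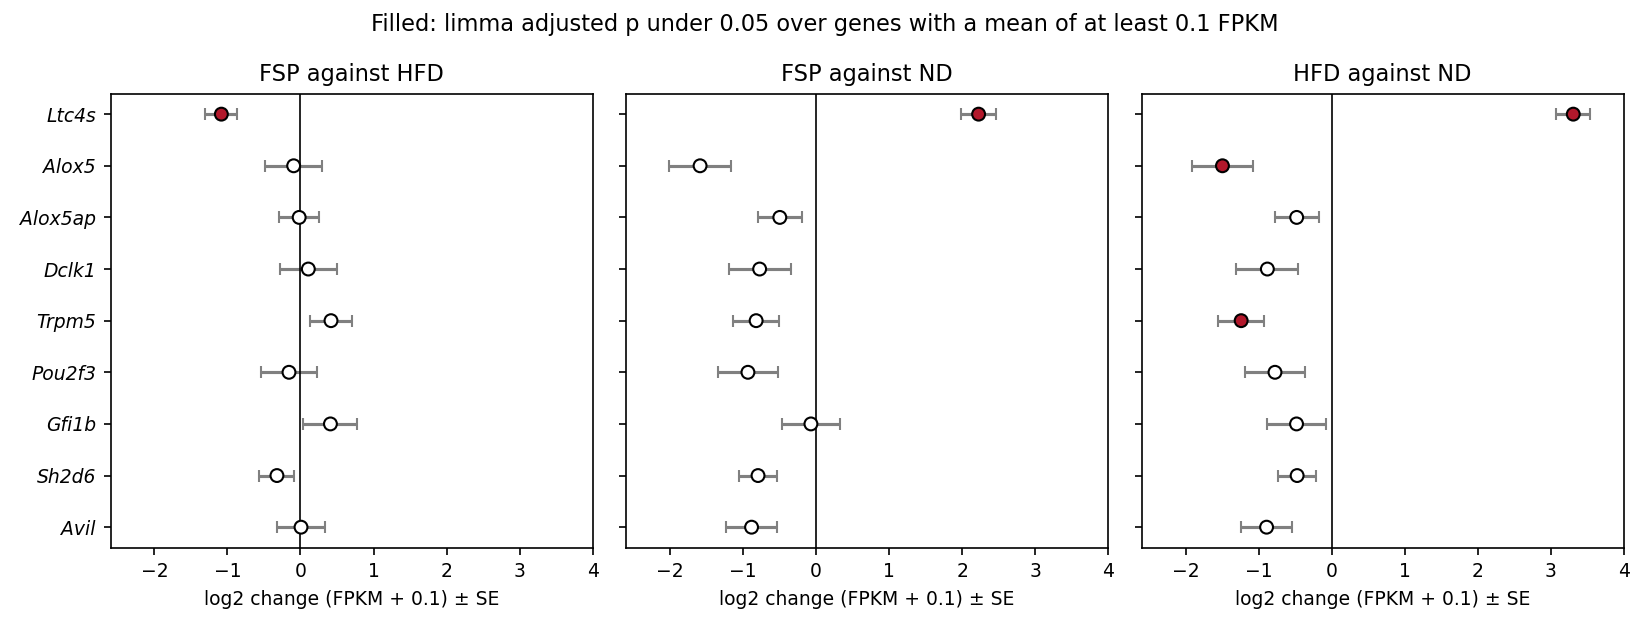
Log2 change (x axis, on log2(FPKM + 0.1), with SE bars) of 9 members in the 3 comparisons, from the limma fit over 14803 genes with a mean of at least 0.1 FPKM; Il25 lay below this filter. Filled points have an adjusted p under 0.05: Ltc4s in all 3 panels, and Alox5 and Trpm5, to the left of 0, in HFD against ND.

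In ND the order of levels per length ran from Alox5ap (3.96 ± 0.998 FPKM), Ltc4s (3.89 ± 0.117) and Sh2d6 (3.59 ± 0.637) through Avil (2.88 ± 0.655), Trpm5 (2.03 ± 0.233), Alox5 (1.25 ± 0.398), Dclk1 (1.10 ± 0.451) and Pou2f3 (0.935 ± 0.236) to Gfi1b (0.143 ± 0.112) and Il25 (0.112 ± 0.0182; SD, n = 3). There the means of Alox5ap, Ltc4s and Sh2d6 differed by less than the SD of Sh2d6, those of Alox5, Dclk1 and Pou2f3 by less than the SD of Alox5, and those of Gfi1b and Il25 by less than the SD of Gfi1b. In HFD the order was led by Ltc4s at 40.3 FPKM, with Alox5ap (2.90 ± 1.10 FPKM) and Sh2d6 (2.59 ± 0.681) next, and in FSP by Ltc4s at 19.2 FPKM, with Alox5ap (2.77 ± 0.637) and Sh2d6 (2.06 ± 0.537; SD, n = 4) next.

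The FPKM of Ltc4s over that of another member within a library does not depend on how the library was scaled. With 0.1 added to both, this no longer holds exactly for low genes. The added 0.1 makes up much of the denominator for Il25 (at most 0.133 FPKM in any library) and Gfi1b (at most 0.265 FPKM). Against Trpm5, Ltc4s stood at 10.1 to 20.8 in FSP, 32.5 to 117 in HFD and 1.64 to 2.09 in ND, as FPKM over FPKM. Against Sh2d6 the ratio was 6.47 to 13.9 in FSP, 12.3 to 23.5 in HFD and 0.984 to 1.36 in ND. On log2(FPKM + 0.1), the ratio of Ltc4s to all 9 members was higher in HFD than in ND with no overlap, by 3.78 (Sh2d6) to 4.80 (Alox5), and higher in FSP than in ND with no overlap, by 2.30 (Gfi1b) to 3.81 (Alox5). Each of these 18 differences had an exact permutation p of 0.0286, which is the smallest possible and stayed 0.0286 after Benjamini-Hochberg adjustment over the 9 members. Every one rests on the same Ltc4s values, so they are not separate pieces of evidence. In FSP against HFD the ratio was lower for all 9, by differences of -1.50 (Trpm5) to -0.76 (Sh2d6), of which those to Trpm5, Il25 and Gfi1b had no overlap between groups, and none passed after adjustment (exact permutation, adjusted p = 0.0857 to 0.143).

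**Figure D3:**
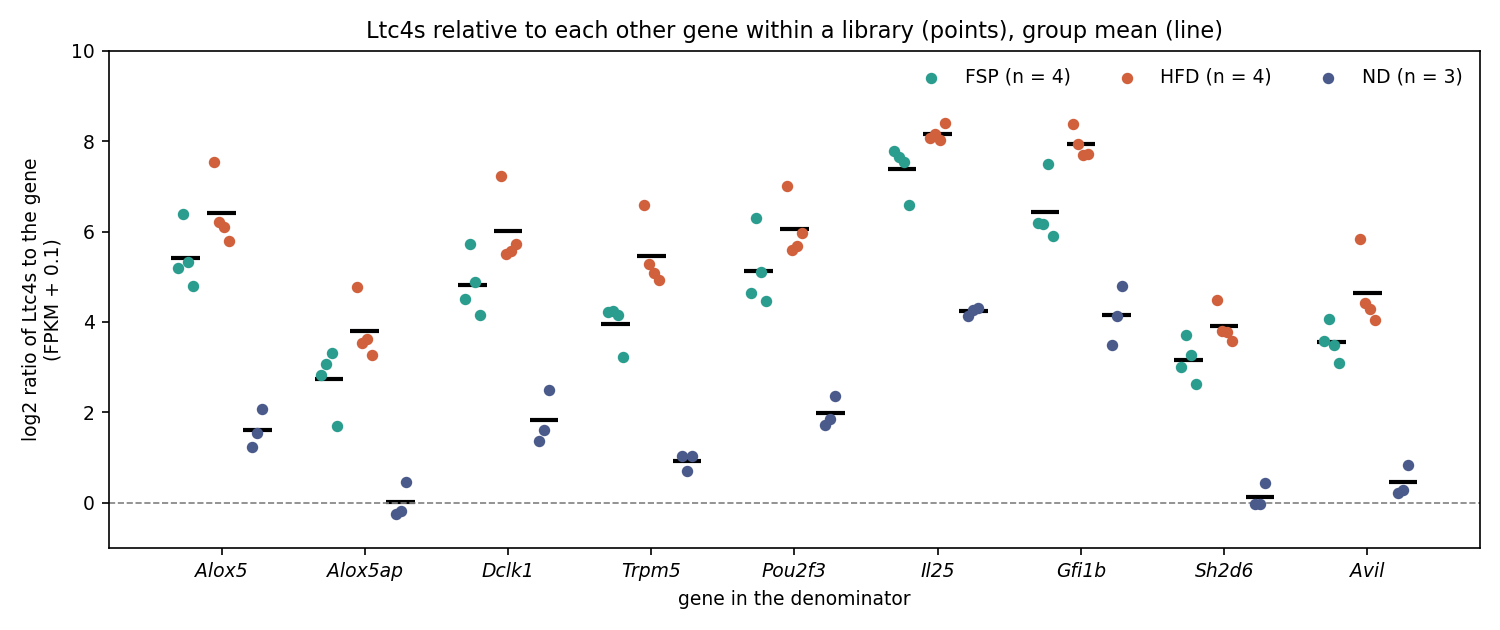
Log2 ratio of Ltc4s to each other member (y axis, FPKM + 0.1) in each library of FSP, HFD and ND; points are libraries and lines are group means. For every gene on the x axis the ND libraries lie below all FSP and HFD libraries, with group means of 0.01 to 4.24 in ND.

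Within groups, the pairs that passed the test were all among Alox5, Dclk1, Trpm5, Pou2f3, Sh2d6 and Avil. No pair with Ltc4s, Alox5ap, Il25 or Gfi1b passed. Deviations of log2(FPKM + 0.1) from the group means were correlated over the 11 libraries, with exact permutation of the libraries within each group (two-sided, 3456 arrangements) and Benjamini-Hochberg adjustment over the 9 pairs with Ltc4s and over the 36 pairs without it. Pearson r of Ltc4s with the 9 others was -0.32 to 0.36, Spearman rho was -0.44 to 0.37 (exact permutation p of 0.227 to 0.909), and none passed (exact permutation p of 0.388 to 0.974, adjusted p = 0.974). Without the 2 libraries farthest from the median, r was -0.49 to 0.49 for Ltc4s. The 21 pairs among Alox5, Alox5ap, Dclk1, Trpm5, Pou2f3, Sh2d6 and Avil had r of 0.53 to 0.94, rho of 0.45 to 0.95 (exact permutation p of 0.000868 to 0.202) and r of 0.38 to 0.95 without the 2 farthest libraries. Of these, 12 passed, with adjusted exact permutation p of 0.00781 at the least, and all 12 were among the 15 pairs without Alox5ap. The 15 pairs with Il25 or Gfi1b had r of -0.20 to 0.57, and none passed (exact permutation p of 0.0758 or more).

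The same libraries were low in many of these genes. In HFD, HFD 1 was lowest and HFD 4 highest in Alox5, Alox5ap, Trpm5 and Avil, and the mitochondrial share was 40.4% in HFD 1, 26.3% in HFD 2, 22.8% in HFD 3 and 18.1% in HFD 4. In FSP, FSP 2 was lowest in Alox5, Dclk1, Trpm5, Pou2f3, Sh2d6 and Avil, and in ND, ND 3 was lowest in Alox5, Alox5ap, Dclk1, Trpm5, Pou2f3, Sh2d6 and Avil. The deviations of the 21 pairs had a median r of 0.79 as deposited, 0.72 without HFD 1 and 0.63 after median-ratio scaling, with a lowest r of 0.53, 0.36 and 0.26 in these settings, both alternatives chosen after seeing the data. The part of the mitochondrial share in this was not tested beyond these alternatives. Ltc4s was highest in HFD 1, the library where Alox5, Alox5ap, Dclk1, Trpm5, Pou2f3 and Avil were lowest within HFD.

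**Figure D4:**
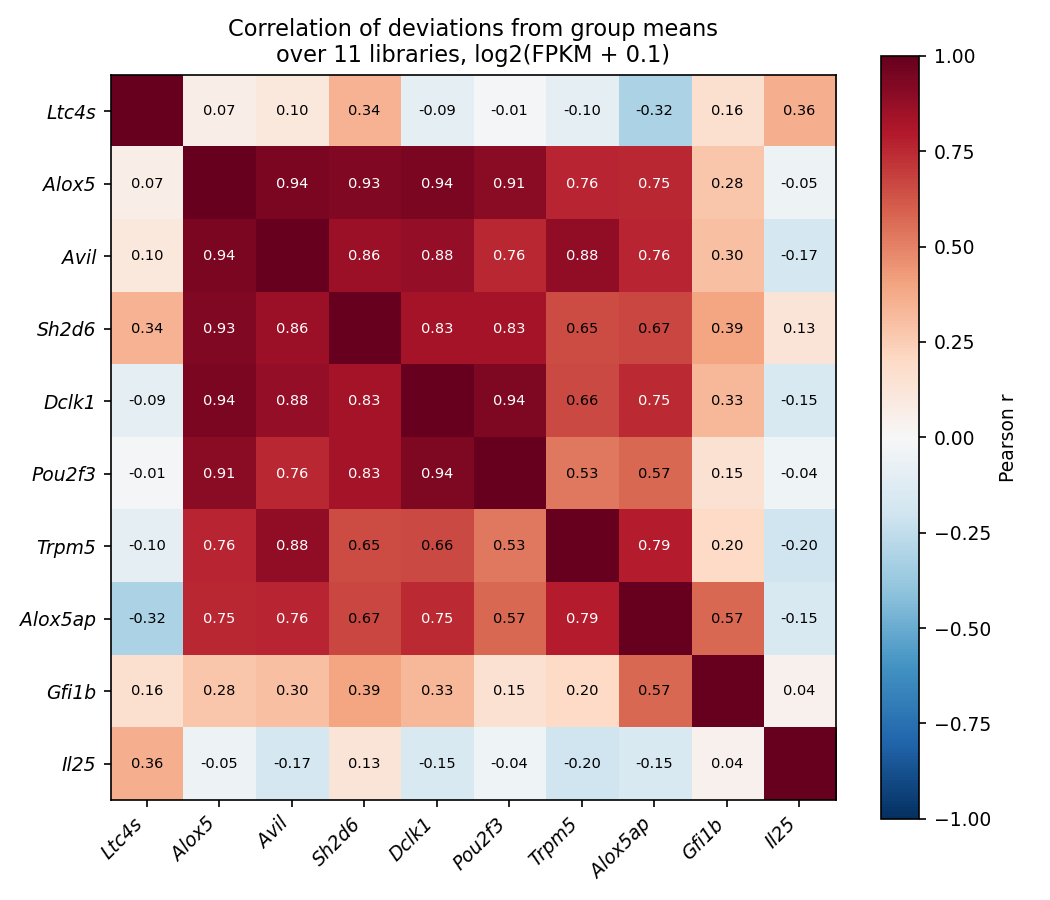
Pearson r of deviations from the group means, log2(FPKM + 0.1), for each pair of members over the 11 libraries; the colour runs from -1 (blue) to 1 (red). The block of 7 genes from Alox5 to Alox5ap has r of 0.53 to 0.94, and the Ltc4s row runs from -0.32 to 0.36.

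The Ltc4s level moved with the position score too. The score was lowest in HFD, where Ltc4s was highest, and highest in ND 1 and ND 2, where Ltc4s was 4.00 and 3.77 FPKM. Within FSP, Ltc4s fell as the score rose, from 23.1 FPKM in FSP 3 (score -0.11) to 11.8 FPKM in FSP 4 (2.37). Within HFD, HFD 2 had the highest score (-0.54) and the lowest Ltc4s (28.4 FPKM). HFD 4, with the lowest score (-1.83), had 42.5 FPKM, below the 50.8 FPKM of HFD 1 (-1.31). The ND libraries had 4.00, 3.77 and 3.91 FPKM at scores of 4.12, 3.16 and 1.64. At scores close to each other, FSP 1 and FSP 2 had scores of 1.67 and 1.69 with 21.9 and 19.9 FPKM of Ltc4s, and ND 3 had a score of 1.64 with 3.91 FPKM of Ltc4s. Trpm5 in these libraries was 1.07 and 0.954 FPKM in FSP 1 and FSP 2, and 1.87 FPKM in ND 3. No HFD library had a score in the range of ND, so position and group cannot be told apart between these groups.

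**Figure D5:**
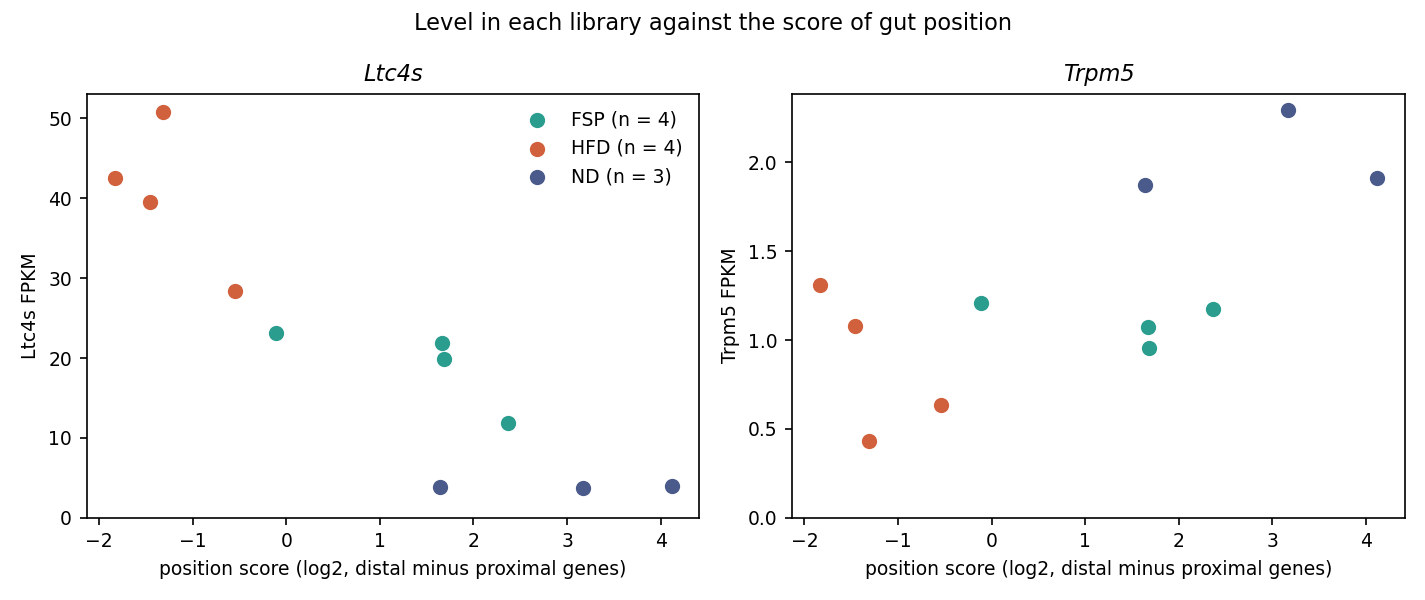
FPKM of Ltc4s (left) and Trpm5 (right), y axes from 0, against the position score of each library (x axis, mean log2 of distal minus proximal genes; higher is more distal). At scores of 1.64 to 1.69, 2 FSP libraries have 21.9 and 19.9 FPKM of Ltc4s and 1 ND library has 3.91 FPKM. Within FSP, Ltc4s is lower at each higher score.

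Genes that varied most like Ltc4s over the 11 libraries were none of the members. By Pearson r of log2(FPKM + 1) among 9959 genes with an assigned symbol, they were Cdip1 (0.979), Ceacam18 (0.978), Il15 (0.978), Ppm1j (0.972), Bdh2 (0.966), Kdelr3 (0.965), Rassf6 (0.959) and Bin1 (0.957), a likeness that the group differences contribute to. Il15, a cytokine that sustains intraepithelial lymphocytes, had 11.7 ± 1.60 FPKM in FSP, 15.9 ± 2.83 FPKM in HFD (SD, n = 4 each) and 6.25 ± 0.124 FPKM in ND (SD, n = 3). In the same ranking with Ltc4s, Sh2d6 was number 5115, Alox5ap 5831, Avil 6852 and Trpm5 9333. Most like Trpm5 were Slc2a9 (0.975), Mnat1 (0.969), Tm7sf3 (0.964), Lgals3bp (0.957), Ppard (0.957), Slc35f5 (0.955), Pdhb (0.954) and Asns (0.951), with Avil at number 134 (r = 0.889) and Ltc4s at number 9926.

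A list of 40 further tuft cell genes, of which 39 were in the table and 21 were tested, had none that rose and 3 that fell in HFD against ND, with a median log2 change of -0.13 beside -0.21 over all genes. The share that fell was close to the 15.1% of all tested genes. Rgs13, a regulator of G protein signalling, had 3.09 ± 0.916 FPKM in FSP, 3.01 ± 0.757 FPKM in HFD (SD, n = 4 each) and 6.93 ± 3.13 FPKM in ND (SD, n = 3), a log2 change of -0.93 in HFD against ND (limma adjusted p = 0.0326). Kctd12, a potassium channel tetramerisation domain protein, changed by -0.97 (limma adjusted p = 0.0367), and its sign turned to 0.53 with the position score as a covariate. Rgs13 passed in 17 of 24 settings and Kctd12 in 13. None of the 21 passed in FSP against HFD, where Espn (0.44, limma adjusted p = 0.0505) and Itpr2 (0.51, 0.126) came closest, or in FSP against ND, where Kctd12 (-0.98, 0.146) and Rgs13 (-0.90, 0.148) did. At an unadjusted limma p under 0.05, 2 of the 21 were higher in FSP than in HFD, where 18.7% of all genes had such a p in either direction, and 5 were lower in FSP than in ND, where 14.4% did.

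In the fit at 0.1 FPKM, 37 of these tuft genes were tested and 7 fell in HFD against ND, where 9.63% of all genes fell. Gnat3, the G protein alpha subunit of taste signalling known as gustducin, had 0.188 ± 0.112 FPKM in FSP, 0.0612 ± 0.0411 FPKM in HFD (SD, n = 4 each) and 0.757 ± 0.0487 FPKM in ND (SD, n = 3). Its log2 change was -2.44 in HFD against ND (limma adjusted p = 0.00120) and -1.65 in FSP against ND (0.0479). Sucnr1, the receptor for succinate, changed by -1.85 (limma adjusted p = 0.00959), Strip2 by -1.41 (0.00877) and Bmx, a Tec family kinase, by -1.18 (0.0162) in HFD against ND. The remaining 3 were Rgs13, Kctd12 and Itpr2. In FSP against ND, 2 of the 37 fell (Gnat3 and Bmx), where 0.196% of all genes fell, and none rose. In FSP against HFD, none of the 37 passed in this limma fit, and 4 had an unadjusted p under 0.05, all higher in FSP, where 15.3% of all genes had one in either direction.

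In the leukotriene pathway, a list of 22 enzymes and receptors that includes Ltc4s, Alox5 and Alox5ap had 11 tested members, of which 3 rose and 1 fell in HFD against ND, where 5.36% of all genes rose and 15.1% fell. The list's median log2 change was 0.35, against -0.21 for all genes. In the fit at 0.1 FPKM, 18 were tested, 2 rose and 2 fell, and the median was -0.01, against -0.25 for all genes. Besides Ltc4s, Mgst3, a microsomal glutathione S-transferase of the same protein family, rose: it had 287 ± 26.0 FPKM in FSP, 388 ± 44.3 FPKM in HFD (SD, n = 4 each) and 221 ± 38.9 FPKM in ND (SD, n = 3), a log2 change of 0.82 (limma adjusted p = 0.00354). Ltb4r1, a receptor for leukotriene B4, rose by 0.65 (limma adjusted p = 0.0476), passed in 11 of 24 settings, and turned to -0.26 with the position score as a covariate. Mgst2, a relative of Ltc4s that can also make leukotriene C4, had 92.8 ± 12.5 FPKM in FSP, 112 ± 12.9 FPKM in HFD (SD, n = 4 each) and 83.4 ± 11.6 FPKM in ND (SD, n = 3), and did not pass (limma adjusted p of 0.319 in FSP against HFD, 0.650 in FSP against ND and 0.0626 in HFD against ND).

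Dpep1, the dipeptidase that turns leukotriene D4 into leukotriene E4, ran opposite to Ltc4s in HFD against ND and in FSP against HFD, but not in FSP against ND. It had 291 ± 38.9 FPKM in FSP, 170 ± 27.0 FPKM in HFD (SD, n = 4 each) and 283 ± 24.4 FPKM in ND (SD, n = 3). Dpep1 rose in FSP against HFD by 0.78 (limma adjusted p = 0.0202) and fell in HFD against ND by 0.74 (0.00830), with 0.04 in FSP against ND (0.934). These calls held in 18 of 24 and 23 of 24 settings. Lta4h, which takes leukotriene A4 to leukotriene B4 in place of C4, had 136 ± 11.7 FPKM in FSP, 124 ± 16.2 FPKM in HFD (SD, n = 4 each) and 122 ± 11.3 FPKM in ND (SD, n = 3). Pla2g4a, the phospholipase that frees arachidonic acid, had 2.67 ± 0.421 FPKM in FSP, 1.97 ± 0.559 FPKM in HFD and 2.94 ± 1.24 FPKM in ND, and neither gene passed. The receptors for cysteinyl leukotrienes were low, with Cysltr1 at most 0.356 FPKM and Cysltr2 at most 0.469 FPKM in any library. In FSP against HFD, 1 gene of the 11 rose (Dpep1) and 1 fell (Ltc4s), where 2.83% of all genes rose and 0.913% fell. In FSP against ND, 1 rose (Ltc4s) and none fell, where 0.699% rose and 0.33% fell.

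Prostanoid genes, the other branch from arachidonic acid, had 7 of 20 tested. Slco2a1, the prostaglandin transporter, had 15.9 ± 2.92 FPKM in FSP, 7.08 ± 1.32 FPKM in HFD (SD, n = 4 each) and 18.9 ± 1.02 FPKM in ND (SD, n = 3). It rose in FSP against HFD by 1.06 (limma adjusted p = 0.00956) and fell in HFD against ND by 1.31 (0.000806), each in 23 of 24 settings, and was the only one of the 7 to pass, where 2.83% of all genes rose in FSP against HFD and 15.1% fell in HFD against ND. Ptger4 (0.63, limma adjusted p = 0.161) and Ptges3 (-0.33, 0.358) came closest in FSP against ND. Tuft cell cyclooxygenase Ptgs1 had 1.81 ± 0.702 FPKM in FSP, 1.39 ± 0.254 FPKM in HFD (SD, n = 4 each) and 1.64 ± 0.464 FPKM in ND (SD, n = 3).

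The genes of the type 2 circuit around tuft cells had 17 of 20 in the table and 7 tested. Il4ra, the shared receptor chain for interleukins 4 and 13, had 12.6 ± 1.66 FPKM in FSP, 7.82 ± 1.01 FPKM in HFD (SD, n = 4 each) and 10.3 ± 0.505 FPKM in ND (SD, n = 3). It rose in FSP against HFD by 0.62 (limma adjusted p = 0.0228) in 14 of 24 settings, and no gene of the list passed in another comparison (limma adjusted p of Il4ra 0.0740 and Il33 0.125 in HFD against ND, and of Il33 0.213 and Il4ra 0.390 in FSP against ND). Of all tested genes, 2.83% rose and 0.913% fell in FSP against HFD. These shares were 5.36% and 15.1% in HFD against ND, and 0.699% and 0.33% in FSP against ND. Il4 was at most 0.0477 FPKM and Il13 at most 0.0232 FPKM in any library. Both were listed at 0 in every HFD library, and the lowest FSP and ND libraries were also at 0 for each.

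Markers of other cells that can make leukotriene C4 were measured beside Ltc4s. The 11 mast cell genes in the table summed to 0.899 to 2.68 FPKM in FSP, 0.757 to 1.66 FPKM in HFD and 1.29 to 2.05 FPKM in ND, led by Kit, which interstitial cells of Cajal also express. The defining mast cell genes Cpa3, Cma1, Fcer1a, Ms4a2 and Mcpt4 were at most 0.0400 FPKM in any library. Mcpt1 averaged 0.129 FPKM in FSP, 0.0613 FPKM in HFD and 0.0273 FPKM in ND, and Tpsb2 0.0514, 0.0245 and 0 FPKM. In the same order Mcpt2 averaged 0.0278, 0.00552 and 0.0152 FPKM, Hdc 0.0520, 0.0408 and 0.0727 FPKM, and Gata2 0.280, 0.0837 and 0.167 FPKM. The groups overlapped for Mcpt1 and Tpsb2. These further genes were chosen after their values were seen, and the part of mast cells in the Ltc4s values was not tested. The 7 eosinophil genes summed to 1.68 to 3.92 FPKM in FSP, 1.13 to 3.30 FPKM in HFD and 1.92 to 3.77 FPKM in ND. Epx, their peroxidase, was at most 0.00847 FPKM in any library. The leading gene of this list, Siglecf, which tuft cells also express, had 1.14 ± 0.277 FPKM in FSP, 1.15 ± 0.356 FPKM in HFD (SD, n = 4 each) and 2.52 ± 0.688 FPKM in ND (SD, n = 3), and fell in HFD against ND by 0.71 (limma adjusted p = 0.0207). Prg2, the major basic protein of eosinophil granules, went the other way, with 0.862, 2.63, 0.419 and 1.14 FPKM in FSP, 0.167, 0.977, 1.02 and 0.828 FPKM in HFD, and 0.0302, 0.0290 and 0.0573 FPKM in ND. Every FSP and HFD library lay above every ND library, as for Ltc4s, while FSP and HFD overlapped. In the fit at 0.1 FPKM, Prg2 rose by 2.42 in HFD against ND (SE 0.58, limma adjusted p = 0.0176) and by 3.04 in FSP against ND (SE 0.58, limma adjusted p = 0.0385), with 0.62 in FSP against HFD (SE 0.54, limma adjusted p = 0.647). Il5ra, the alpha chain of the interleukin 5 receptor, had 0 to 0.268 FPKM in FSP, 0 to 0.215 FPKM in HFD and 0 to 0.00734 FPKM in ND, below the filter of that fit. Ear2, an eosinophil-associated ribonuclease, overlapped between groups at 0.0366 to 1.35 FPKM in FSP, 0 to 0.993 FPKM in HFD and 0.113 to 0.953 FPKM in ND, and Ear1, Epx and Ccr3 were at most 0.0367 FPKM in any library. The part of eosinophils in the Ltc4s values was not tested. Prg2, Il5ra, Ear1, Ear2 and Ccr3 were chosen after their values were seen. The 12 macrophage genes summed to 32.3 to 167 FPKM in FSP, 34.1 to 98.0 FPKM in HFD and 38.8 to 44.1 FPKM in ND, and none of the 8 tested passed limma. An unadjusted limma p under 0.05 was reached by 1 in FSP against HFD (higher), 3 in FSP against ND (all higher) and 1 in HFD against ND (lower). Of all genes 18.7%, 14.4% and 37.6% had such a p in either direction. The median log2 change of the 8 was 0.51, 1.02 and 0.45 in these comparisons, beside 0.12, -0.07 and -0.21 over all genes. The part of macrophages in the Ltc4s values was not tested. The 8 neutrophil genes in the table summed to at most 0.546 FPKM in any library. The 10 neuronal genes summed to 9.24 to 50.1 FPKM in FSP, 8.55 to 31.5 FPKM in HFD and 25.2 to 41.4 FPKM in ND, and their part in the Dclk1 and Avil values was not tested.

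Some members overlap other genes on the opposite strand in the GENCODE annotation, and the use of strand in counting is not given in the sources used here. Ltc4s shares 268 exon bases with the antisense gene Gm26542, Alox5ap 189 with Gm19719, Trpm5 220 with Tssc4 and Avil 165 with Tsfm. If strand was not used, reads in these bases cannot be told apart.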

How the data were processed

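Total RNA of 11 intestine samples was extracted with TRIzol and made into libraries with the VAHTS Universal V6 kit, per the labels' protocols. Per the submitters' processing notes, fastp, HISAT2, HTSeq, R 3.2.0 and mm10 were used. The authors deposited FPKM per gene and library; neither annotation nor strand setting is given in the sources used here. Depth was recovered from low FPKM values of 658 single-exon genes, and 75.0% to 79.8% of these were whole fragments to within 0.05. The main test was limma 3.58.1 (R 4.3.3) on log2(FPKM + 1) over 10296 genes with a mean of at least 1 FPKM, all 3 groups in 1 fit with an intensity trend, two-sided, Benjamini-Hochberg within a comparison, threshold 0.05; log2 changes of low genes are understated on this scale. Single members and ratios were tested by two-sided exact permutation of mean differences. The procedure was tested on simulated data.

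The named genes were all 10 members, up to 4 genes past the threshold of each further list or else the 2 nearest, the 8 genes most like Ltc4s and the 8 most like Trpm5, and the leading and defining markers of each cell type. The members and lists were chosen with earlier results of these data known; Lta4h, Mgst2, Pla2g4a, Ptgs1, Cysltr1, Cysltr2, Il4 and Il13 were named after their values were seen. A gene that the rule selects among the further tuft cell genes is not reported here. Alternatives changed the pseudocount, filter, scaling, libraries, covariate and trend.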

Additional observations from a re-analysis of the deposited data

Results flagged for a closer look

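In HFD, the log2 ratio of Ltc4s to Dclk1 was 7.23 in HFD 1, above the other 3 HFD libraries at 5.50 to 5.73, a gap that took 0.872 of the range of the group. In FSP, the log2 ratio of Ltc4s to Trpm5 was 3.23 in FSP 4, below the other 3 FSP libraries at 4.16 to 4.24, a gap of 0.904 of the range. Each stood apart by Dixon's test at 95%, which chance flags in about 1 of 20 groups, and 20 groups of member values and 18 groups of ratios were examined. HFD 1 had the largest mitochondrial share (40.4%) and FSP 4 the smallest (12.9%).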

How the results depend on the processing

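Leaving out 1 library at a time moved the count of genes that passed in HFD against ND from 849 to 2678 (2109 with all libraries; 877 without ND 1 and 849 without ND 2) and the count of members from 1 to 3, the extra member being Avil without HFD 4 and the lost one Trpm5 without ND 2. In FSP against HFD it moved all genes from 48 (without FSP 4) to 458, against 385, and members from 0 to 1, and in FSP against ND all genes from 13 (without ND 2) to 201 (without HFD 1), against 106, with 1 member each time. With the position score as a covariate, 0 genes and 0 members passed in HFD against ND (911 genes at an unadjusted limma p under 0.05) and in FSP against HFD (854), and 18 genes in FSP against ND; the score rises and falls with the groups. Without a filter, 117 genes and 0 members passed in FSP against HFD and 58 genes in FSP against ND, where more low genes were tested. With only the 2 groups in the fit, 76 genes and 0 members passed in FSP against HFD, where fewer libraries set the spread, and quantile normalization gave 192 genes in FSP against ND. For the other cases the cause was not tested.

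No value of these results changed direction past its threshold. With a pseudocount of 1 the 9 ratios of Ltc4s in FSP against HFD reached an adjusted exact permutation p of 0.0286, and the cause was not tested. This pseudocount exceeds every FSP and HFD value of Alox5, Dclk1, Pou2f3, Gfi1b and Il25 (at most 0.870 FPKM). Ratios to these genes then lie closer to the Ltc4s values alone, which did not overlap between FSP and HFD. On a pseudocount of 0.1 the exact permutation p of Alox5 in HFD against ND was 0.0571. Whether replicate numbers pair the libraries is not given in the labels. Deviations of same-numbered libraries of different groups correlated at -0.10 to 0.45, and those of differently numbered ones at -0.62 to 0.65. The mitochondrial share fell with replicate number in each group, from 40.4% to 18.1% in HFD, 21.9% to 12.9% in FSP and 22.2% to 16.3% in ND. Recovered depth rose with it in each group, so the numbers may share a structure that was not tested further. With a replicate block, 2357 genes and 2 members passed in HFD against ND, 337 and 1 in FSP against HFD, and 77 and 1 in FSP against ND. Depth limits Il25 and Gfi1b, at no more than 17 fragments a library.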
